A study of Mus musculus with 2 samples.

Results

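Genes for 8 regulators of G protein signalling (RGS proteins) and the 2 inhibitory G protein alpha subunit genes Gnai2 and Gnai3, which act in lymphocyte chemotaxis, were followed in T helper 2 (Th2) cells of Ecm1 knockout and wild-type mice. The genes were Rgs1, Rgs2, Rgs3, Rgs10, Rgs14, Rgs16, Rgs18, Rgs19, Gnai2 and Gnai3, which are 10 of the 18193 genes named on the array, taken by symbol with all of their probe sets, 22 in all. Both groups were described as female C57BL/6 mice of 6 weeks, and both were grown in the same way; the knockout group lacked Ecm1, a secreted matrix glycoprotein, and the other group was wild type, with no further allele named for either. The sources used here do not say how the knockout was made or how many mice were pooled. Splenic CD4 cells, isolated magnetically with anti-CD4 antibody, were cultured for 4 days on plate-bound anti-CD3 and soluble anti-CD28 at 3 and 2 µg/ml, in 10 ng/ml IL-4 (its unit is garbled in the label) and blocking antibodies to IL-12 and IFN-γ at 10 µg/ml each. Each group had 1 array, so every difference below describes these 2 arrays, with no test between groups, no SD over replicates and no replicate check.

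Chemokine and sphingosine-1-phosphate receptors signal through heterotrimeric Gi proteins. An occupied receptor loads the alpha subunit with GTP, which frees the beta-gamma pair to start directed migration through phosphoinositide 3-kinase gamma and Rac. RGS proteins speed GTP hydrolysis by the alpha subunit and thus shorten the signal, so cells with more of a Gi-directed RGS protein respond more weakly to chemokine. In lymphocytes Gnai2 is the main alpha subunit of chemotaxis, and Rgs1 is known for damping chemokine responses of B and T cells.

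The deposited values are linear signals, 1 per probe set and array. A signal below the median of its array (65.5 in the knockout, 69.2 in wild type) was treated as at the floor. Differences are log2 signal, knockout minus wild type, after subtracting their median (-0.10) over all probe sets that reached the floor in both groups; they are called centred. For each gene the brightest probe set gives the value. The knockout array read 19.3 for the only Ecm1 probe set, below the floor, against 29114.7 in wild type; the sources used here do not say whether it lies in the deleted part. The technical SD, taken from the 2 brightest probe sets of 4657 genes, was 0.36 on the log2 scale (0.42 where the dimmer probe set was under 300, 0.22 where it was over 3000), and it leaves out animal, culture and array error. Sample descriptions name liver while titles name Th2 cells; the hepatocyte genes Alb, Apoa1 and Ttr were below the floor on both arrays. T cell markers (Cd3d, Cd3e, Cd3g, Cd4, Cd28 and Trat1) were all above it. Of the Th2 markers, Gata3 read 7423.4 in wild type against 5958.6 for the knockout (-0.21), Il4 was at -0.31 and Ccr4, near the floor, at -0.38. Il13 (240.6 in the knockout against 69.6, 1.89) and Ccr8 (0.56) were higher, with the wild-type Il13 signal just above the floor of 69.2. The Y-linked gene Eif2s3y read 25.0 in wild type against 2214.4 for the knockout at its brighter probe set, and the 3 Xist probe sets of the knockout lay between 38.7% and 48.0% of wild type, although both groups are described as female. The part that these differences between the cultures play in the values below was not tested.

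Of the 10 genes, 9 were measured on both arrays. By the brightest probe set, Rgs1 alone among them was lower in the knockout by 2-fold or more. Another Rgs2 probe set was also past 2-fold (-1.11), while the brightest of Rgs2 was at -0.09. No gene of the 9 was higher by 2-fold or more. Over all 10144 genes measured on both arrays, 4.45% were lower by that much and 7.15% higher, and 1 of 9 genes is too few to set apart from this background. Rgs3 was lower by less than 2-fold at each of its 3 measured probe sets, Rgs10 was higher by just under 2-fold, and the Gi subunits with Rgs14, Rgs16 and Rgs19 lay close to 0. The median of the 9 genes was -0.14, against 0.04 over all genes. Of the 9 genes, 7 lay below 0, compared with 46.9% of all genes.

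**Figure D1:**
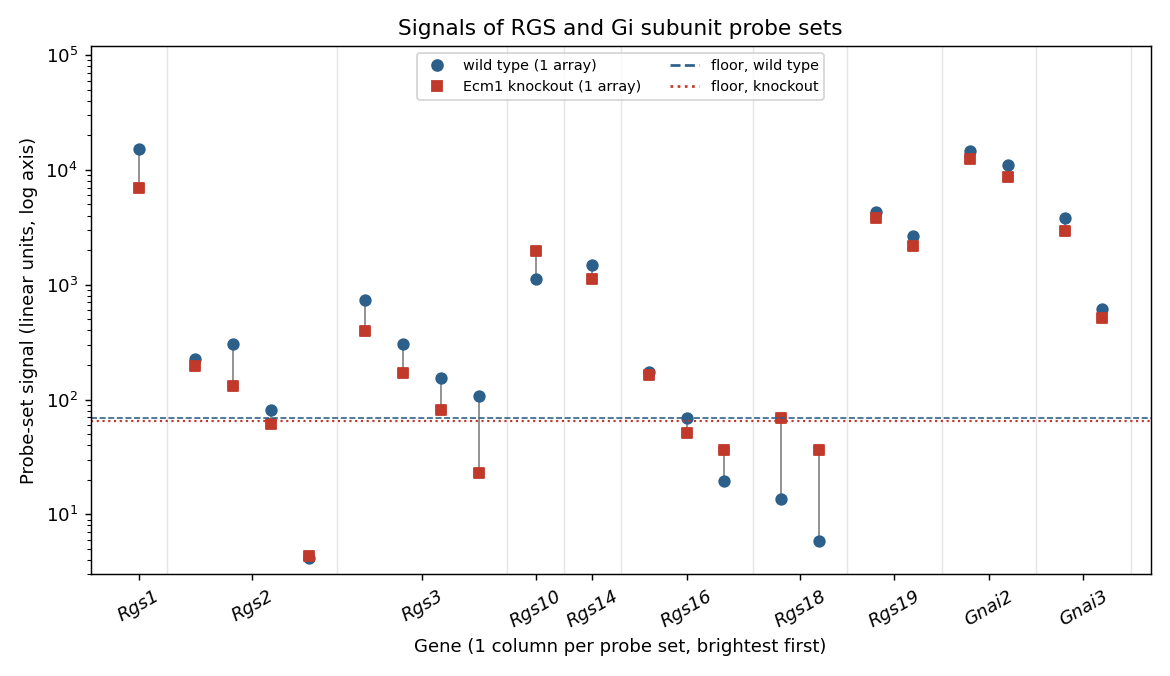
Signal of each probe set (log axis) on the wild-type array (circles) and the Ecm1 knockout array (squares), grouped by gene with the brightest probe set first; dashed and dotted lines mark the floor of each array. Rgs1 and the Rgs3 probe sets sit lower in the knockout, Rgs10 sits higher, and Rgs18 and most Rgs16 probe sets lie around or below the floor.

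Both alpha subunit genes stayed close to 0. Gnai2, the main lymphocyte Gi subunit, read 14541.3 in wild type against 12311.6 for the knockout at its brighter probe set, with 10993.8 against 8624.8 at the other. Both probe sets were slightly lower in the knockout, with centred differences of -0.14 and -0.25. For Gnai3, the related subunit that can act beside Gnai2, the brighter probe set read 2959.7 in the knockout cells against 3812.5, a difference of -0.26. Its other probe set read 509.2 in the knockout cells and 611.8 in wild type, a difference of -0.16. All 4 probe sets of the subunits were thus lower in the knockout, by at most 0.26 after centring. The size depended on the scaling. After quantile normalization the Gnai2 probe sets were at -0.31 and -0.42, and those of Gnai3 at -0.39 and -0.13. The dimmer Gnai2 probe set lay farther from 0 than the technical SD of 0.22 for signals over 3000, and no replicate bears on differences of this size.

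Rgs1 had the lowest centred difference of the measured genes by the brightest probe set, although another Rgs2 probe set was lower (-1.11). Its only probe set read 15254.9 for wild type and 6896.9 for the knockout, which is 45.2% of the former. The fold was 2.21 as deposited and 2.06 after centring, a difference of -1.04, which lies just past the 2-fold line. Of the 10144 genes, 406 (4.00%) were as low or lower. With a single probe set, no second reading of the transcript was available on these arrays.

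Rgs3 was the most evenly read of the lower genes. It encodes a GTPase activator for Gi and Gq subunits. The brightest probe set read 392.3 in the knockout cells and 730.2 in wild type, a centred difference of -0.79. In the same order the next read 168.9 and 302.7 (-0.74) and another 81.7 and 155.0 (-0.82). These 3 readings lay within 0.08 of each other, with an SD of 0.04 between probe sets. The fourth read 22.8 in the knockout, below the floor, and 106.3 in wild type, which gives a bound of -0.60 or lower. Of all genes measured, 799 (7.88%) were as low or lower than Rgs3.

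Rgs10 went the other way. It encodes a small RGS protein that acts on Gi subunits, and its single probe set read 1965.9 in the knockout cells and 1116.6 in wild type. The centred difference was 0.92, a fold of 1.89, and 897 genes (8.84%) were as high or higher. Rgs10 and Rgs1 lay 1.96 apart on the log2 scale, and Rgs10 and Rgs3 lay 1.71 apart. The SD of a difference between 2 genes, from the technical SD, was 0.51.

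Promoter windows are shown for Rgs3, whose probe sets were lower together, and Rgs10, the gene on the opposite side. Each is the 250 bases before an annotated start, 5′ to 3′, from RefSeq (GRCm38.p6), a table that held windows for 6 of the 10 genes. Rgs3 has 2 starts in it, chr4:62559597-62559846 and chr4:62619422-62619671 on the plus strand, and Rgs10 has 1, chr7:128418173-128418422 on the minus strand. Capitals mark CACCC on either strand (GGGTG when on the other strand), the core bound by Krüppel-like factors.
Rgs3 start A: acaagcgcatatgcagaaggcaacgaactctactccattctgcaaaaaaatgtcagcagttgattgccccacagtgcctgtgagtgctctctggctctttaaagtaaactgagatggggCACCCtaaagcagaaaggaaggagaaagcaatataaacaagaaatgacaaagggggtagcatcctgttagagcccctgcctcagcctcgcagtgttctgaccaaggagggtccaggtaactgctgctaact
Rgs3 start B: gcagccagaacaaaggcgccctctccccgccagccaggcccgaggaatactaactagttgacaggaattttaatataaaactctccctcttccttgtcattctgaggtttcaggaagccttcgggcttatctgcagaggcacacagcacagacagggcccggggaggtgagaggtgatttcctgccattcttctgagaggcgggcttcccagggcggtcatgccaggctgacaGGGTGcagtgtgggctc
Rgs10: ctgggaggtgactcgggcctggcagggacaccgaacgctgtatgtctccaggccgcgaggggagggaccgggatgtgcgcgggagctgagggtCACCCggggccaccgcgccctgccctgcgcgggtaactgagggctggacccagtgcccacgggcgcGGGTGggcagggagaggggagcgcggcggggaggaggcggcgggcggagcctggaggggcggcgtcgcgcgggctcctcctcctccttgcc
The Rgs10 window was 76.4% G or C with 27 CpG pairs, whereas the Rgs3 windows were 48.4% and 56.8% G or C with 3 and 7 CpG pairs. Over all 9 windows of the 6 genes the share ran from 48.4% to 76.4%. Rgs19, a gene near 0, had 1 window of 74.8% with 34 CpG pairs. The window of Rgs2, whose measured probe sets were at -0.09 and -1.11, held 72.4% with 30. The median over 32851 promoter windows of this length was 52.4% G or C. CACCC was found 2 times before Rgs10, 1 time before each Rgs3 start and 3 times before Rgs16. It was found 2, 1 and 2 times before the Rgs19 starts, 1 time before Rgs2 and not before Gnai3. Of all windows 52.0% hold it. No binding or methylation was measured in this series, so the letters are given as description.

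**Figure D2:**
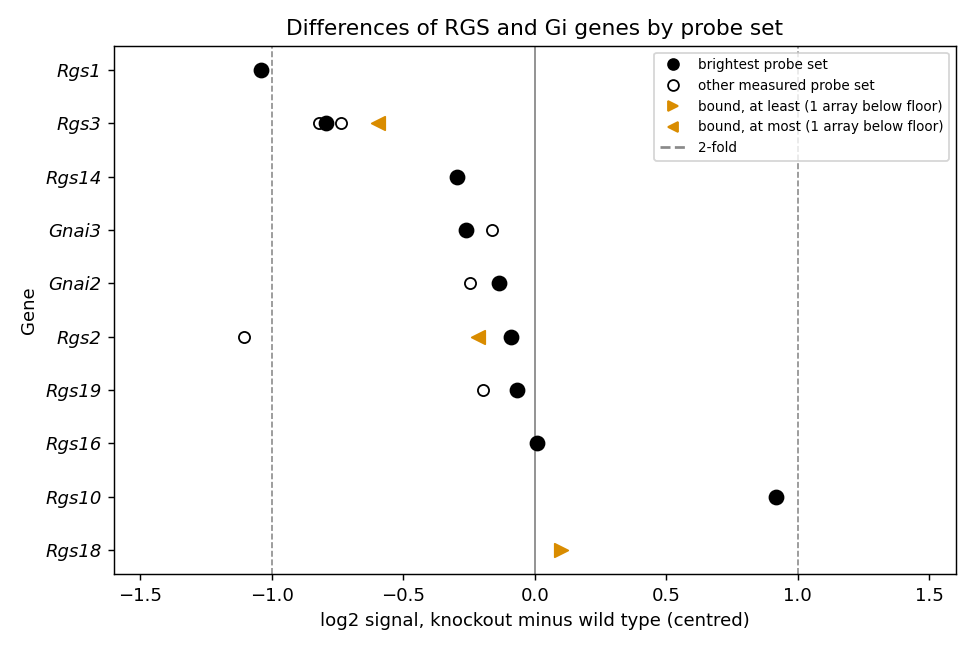
Centred log2 difference (knockout minus wild type) of each probe set, by gene in order of the brightest probe set; filled circles are the brightest probe set, open circles other measured probe sets, triangles bounds, and dashed lines 2-fold. The Rgs3 probe sets cluster between -0.82 and -0.74, whereas the 2 measured Rgs2 probe sets lie 1.02 apart.

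The 2 measured probe sets of Rgs2 disagreed. Rgs2 encodes an RGS protein that prefers Gq over Gi. Its brightest probe set read 196.1 in the knockout cells and 224.2 in wild type (-0.09), while another read 130.6 and 301.9 (-1.11). Of the dimmer ones, the first read 61.2, below the floor, with the knockout and 81.7 with wild type, a bound of -0.22 or lower. The last read 4.3 and 4.2 and has no fold. Of 1809 genes whose dimmer probe set was under 300, 9.23% had their 2 brightest probe sets more than 1 apart. The direction of Rgs2 was below 0 at both measured probe sets, and its size is not settled by these readings.

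Rgs14, Rgs19 and Rgs16 lay near 0. Rgs14, which joins an RGS domain to a motif that binds inactive Gi subunits, read 1119.4 in the knockout cells and 1474.7 in wild type (-0.29). Rgs19, an activator of GTP hydrolysis by Gi subunits, read 3794.3 and 4276.3 (-0.07), and 2167.3 and 2670.2 (-0.20) at its other probe set. Rgs16, which acts on Gi and Gq subunits and is induced in activated lymphocytes, read 162.9 and 174.1 at the probe set measured on both arrays. That difference of 0.01 became -0.10 without centring, so it has no settled sign. Its other probe sets read 51.4 and 36.2 in the knockout and 69.0 and 19.4 in wild type, all below the floor.

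Rgs18, an RGS gene of platelets and megakaryocytes, was below the floor in wild type and near it in the knockout. Its brighter probe set read 13.7 in wild type and 69.1, just above the floor, in the knockout. Against the wild-type floor the centred difference was at least 0.10. The other probe set read 36.0 and 5.9, below the floor on both arrays. Among 5 platelet markers, Ppbp, Gp9 and Gp1bb were below the floor on both arrays, Itga2b read 173.1 (knockout) against 232.1 (wild type), and Pf4 877.8 against 94.4.

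In order of their difference the measured genes ran Rgs1, Rgs3, Rgs14, Gnai3, Gnai2, Rgs2, Rgs19, Rgs16 and Rgs10. Rgs1 and Rgs3 lay 0.25 apart and Rgs3 and Rgs14 lay 0.50 apart, both within the SD of 0.51 for 2 genes. From Rgs14 to Rgs16 no neighbours were more than 0.13 apart. Only the step from Rgs16 to Rgs10, 0.91, was larger than that SD. Rgs16 read under 300, and for genes whose dimmer probe set was that dim the SD was 0.60. Both SDs leave out animal, culture and array error.

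In the RefSeq gene table Rgs2, Rgs13, Rgs1, Rgs21 and Rgs18 follow each other on chromosome 1 with no other protein-coding gene between them. Rgs1 was at -1.04 here, the 2 measured Rgs2 probe sets were at -0.09 and -1.11, and Rgs18 had only a bound, so these readings do not settle whether the neighbours differ. Rgs16 stands beside Rgs8 elsewhere on the same chromosome.

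The list of lymphocyte Gi-coupled receptors had 15 genes measured on both arrays, with Ptger4 (-0.04) among them, whose product signals mainly through Gs. Of the 15, 5 were lower by 2-fold or more (4.45% over all genes), 2 were higher by as much (7.15%) and 8 lay between. Their median was -0.88, against 0.04 over all genes. On the same arrays the 6 T cell markers had a median of -0.90 and the 5 CD8 and cytotoxic markers one of -1.64, and their part in the receptor values was not tested. The lower ones were Ccr2 (-2.44), the egress receptor S1pr1 (-2.14), Cxcr3 (-1.21), Cxcr6 (-1.19) and Cxcr4 (-1.06). The lymph node homing receptor Ccr7 (-0.99) and the oxysterol receptor Gpr183 (-0.97) lay just inside 2-fold, and were past it without centring (-1.10 and -1.07), after loess (-1.09 and -1.01) and after quantile normalization. Gpr183 was at -0.48 as the mean of its probe sets. Ccr2 varied by probe set, from -2.44 to -0.67. S1pr4, the brightest of the list, read 2760.2 in the knockout cells and 5110.1 in wild type (-0.79). Cxcr5 (1.65) and Ccr6 (1.16) were higher, although with a floor at the 70th percentile Ccr6 had only a bound of 0.92. Wild-type Ccr10 (58.3) was below the floor and its knockout signal was 218.8, a bound of at least 1.76.

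Other RGS-domain genes, listed with the RGS-binding protein genes Rgs7bp and Rgs9bp, which have no RGS domain, were mostly at the floor. Of 15 listed genes named on the array, 9 were below it on both arrays, Rgs7bp and Rgs9bp among them. Of the 5 measured, 2 were lower by 2-fold or more (4.45% over all genes) and none was higher by as much (7.15%). Rgs11, an RGS gene best known from neurons, read 179.6 in the knockout cells and 767.6 in wild type (-1.99, or a bound of -1.38 with the higher floor). Axin2, a Wnt pathway scaffold with an RGS domain, read 320.2 and 836.0 (-1.28). The related scaffold Axin1, the brightest of these, was at -0.21, and at 0.11 in its other probe set.

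Of 13 other alpha subunits, 6 were measured on both arrays. By 2-fold or more 4.45% of all genes were lower and 7.15% higher, and all 6 of these subunits lay within 2-fold. Of these, Gnaq, which couples to phospholipase C, was at 0.99, and at 1.02 after quantile normalization or loess. As the mean of its 7 probe sets, of which 5 were measured on both arrays, Gnaq was at 1.29. Gnas, the Gs subunit that raises cAMP, was at 0.40, Gna13 at -0.59 and Gna15 at -0.69. The further Gi subunit Gnai1 (103.2 in the knockout, 57.3 in wild type) and the transducin subunit Gnat2 (118.0 and 36.1) were below the floor in wild type only, with bounds of at least 0.68 and 0.87, and the other 5 were below the floor on both arrays. The median of the 6 was -0.05, close to that of all genes. Gnas read 18351.8 in the knockout cells and 14895.8 in wild type at its brightest probe set, while another was at -0.16. Among 9 beta and gamma genes, Gng12 was past 2-fold on the higher side (1.19, with -0.27 at its other probe set and 0.46 when both were averaged) and the other 8 were within 2-fold. Gnb2, the brightest of them, was at -0.01. Gnb1 was at 0.60, with -0.04 at its other measured probe set. The mean of its 3 probe sets, of which 2 were measured on both arrays, was -0.31.

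Of the 10 measured genes that recycle Gi or switch receptors off, 8 lay below 0, compared with 46.9% of all genes. Among them the beta-arrestin gene Arrb1, whose product uncouples occupied receptors, was at least 2-fold lower (458.0 in the knockout and 1202.9 in wild type, -1.29). The receptor kinase gene Grk5 was at least 2-fold higher (404.8 and 202.5, 1.10), just under 2-fold as deposited. It was at 0.94 with 50 added to the signals and had a bound of 0.47 at the higher floor. As the mean of its 2 probe sets, of which 1 was measured on both arrays, Grk5 was at 0.27. Arrb2 (-0.93, but -1.03 without centring, and past 2-fold after quantile normalization or loess) and the receptor kinase Grk6 (-0.75, and down to -1.26 among its 3 probe sets) were within 2-fold. The median of the list was -0.35, against 0.04 over all genes. By 2-fold or more 10% of the list were lower and 10% higher, against 4.45% and 7.15% of all genes.

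Of 21 downstream effectors, 18 stayed within 2-fold. By 2-fold or more 9.52% of them were lower and 4.76% higher, against 4.45% and 7.15% of all genes. Prex1, a Rac activator driven by beta-gamma, was lower (787.0 in the knockout and 1833.3 in wild type, -1.12), as was Plcb2, a phospholipase activated by beta-gamma (-1.02, but under 2-fold after quantile normalization, at -0.97, after loess, at -0.95, and with 50 added to the signals, at -0.86, and with a bound of -0.44 at the higher floor). Pik3r6, an adaptor of phosphoinositide 3-kinase gamma, was higher (487.7 and 180.3, 1.54, the same at both probe sets, with a bound of 0.73 at the higher floor). The catalytic subunit gene Pik3cg was at 0.86 and the other adaptor Pik3r5 at -0.17. Coro1a, an actin regulator and the brightest of the list, was at -0.20, and Dock2 and Rac2, which drive lymphocyte migration, were at -0.35 and -0.27, or -0.76 and -0.71 as the mean of their probe sets.

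Over all these lists 66 genes were measured, with 10 (15.2%) lower and 5 (7.58%) higher by 2-fold or more and 51 between. Across all genes the shares were 4.45% and 7.15%. The lists were chosen with earlier results of these arrays known, so their counts describe them and are no independent support.

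**Figure D3:**
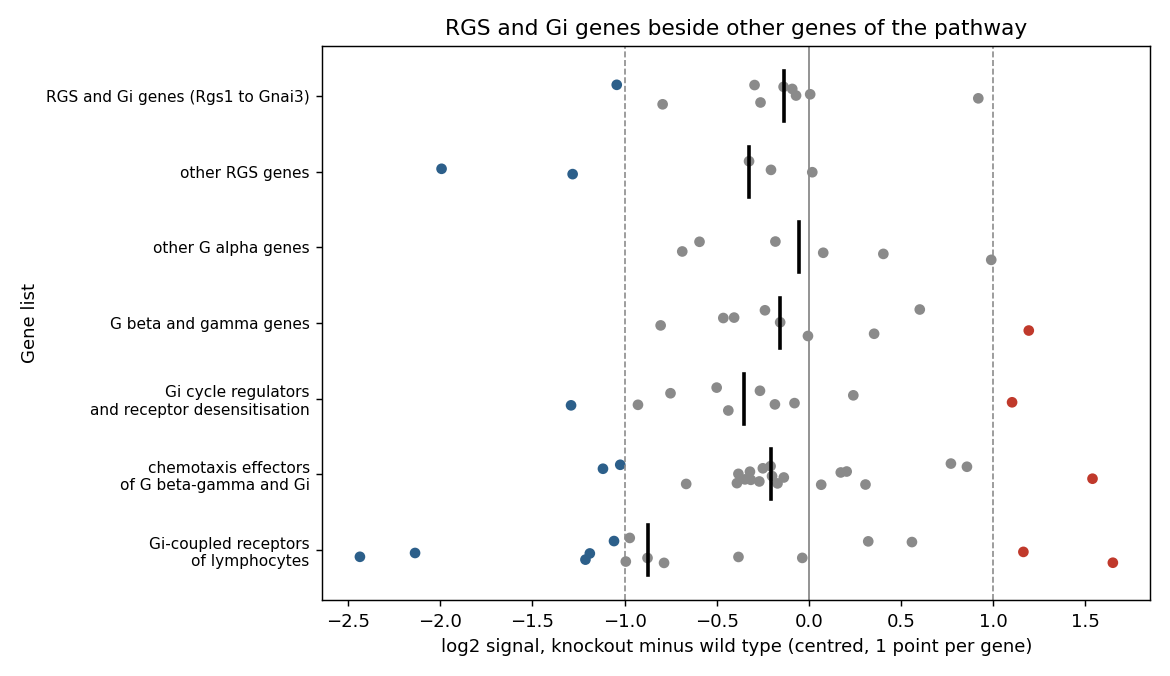
Centred log2 difference (knockout minus wild type) of each gene measured on both arrays, by list, with 1 point per gene, a bar at each median and dashed lines at 2-fold; blue points are at least 2-fold lower and red points at least 2-fold higher. The receptor list lies farthest to the left, with a median of -0.88, while the alpha subunits centre near 0.

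Markers of other cell types moved between the same arrays. The 6 T cell markers were all lower in the knockout, 3 of them at least 2-fold, with a median of -0.90 and summed signals of 34854.7 in the knockout and 65210.0 in wild type. The 5 CD8 and cytotoxic markers were all at least 2-fold lower (median -1.64, summed 9676.6 and 31950.1). Gzma alone gave 8692.4 and 29033.8 of these sums. B cell markers were higher, 6 of 6 measured with 2 at least 2-fold (median 0.81, summed 33262.5 and 16434.9), and Pax5 was below the floor on both arrays. Plasma cell markers were higher in 5 of 5 (median 2.14, summed 40217.7 and 17770.5), and macrophage markers in 5 of 5 measured (median 0.97, summed 4041.1 and 1039.8), with Itgam below the floor on both. Jchain gave 26366 and 13593.4 of the plasma cell sums, and Lyz2 gave 2796.2 and 275.5 of the macrophage sums. Of the other lists, natural killer markers had Tyrobp at 0.02 and Eomes at 0.35, with Ncr1 and Klra8 below the floor, and neutrophil, dendritic, mast cell, erythroid and stromal lists had at most 1 measured marker each.

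Rgs1 (-1.04) and Rgs3 (-0.79) thus lay within the range of the T cell markers, from -2.64 in Trat1 to -0.52 in Cd3d. Both lay outside the ranges of the Th2 (-0.38 to 1.89) and the CD8 and cytotoxic markers (-2.09 to -1.19). Rgs10 (0.92) lay within the ranges of B cell (0.26 to 2.46), macrophage (0.41 to 3.45) and Th2 markers. It also lay within that of the 2 measured platelet markers (-0.32 to 3.32), so several wide ranges hold it. Gnai2 and Gnai3 were nearer to 0 than each of the 6 T cell markers. In these bulk cultures fewer cells of a type and less RNA per cell cannot be told apart. The part of these markers in the RGS values was not tested.

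**Figure D4:**
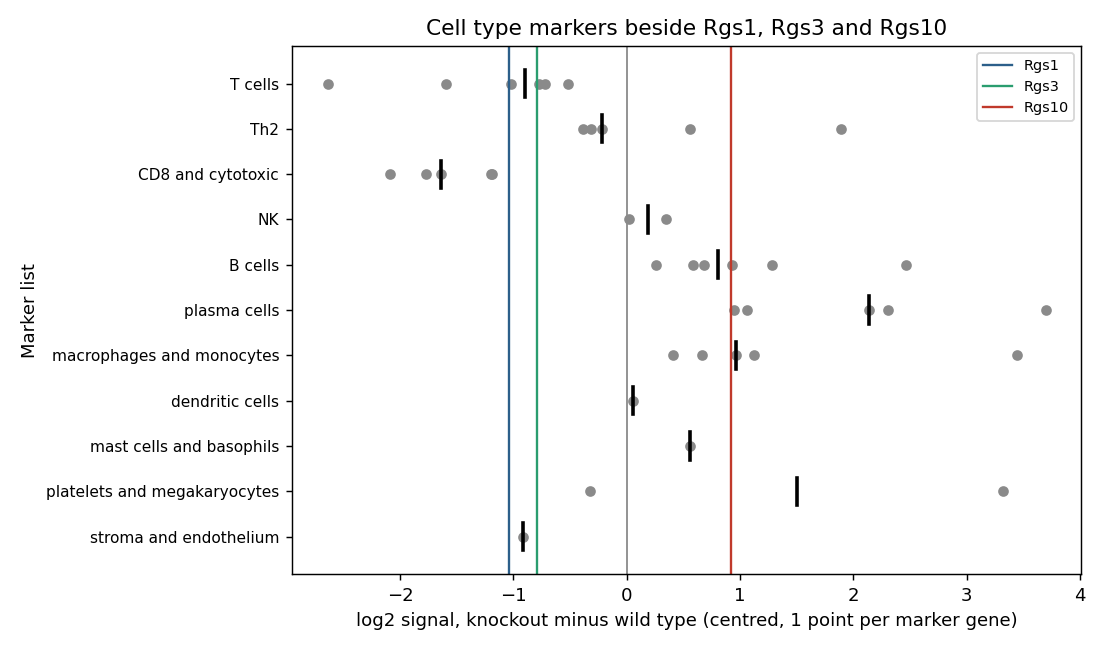
Centred log2 difference (knockout minus wild type) of marker genes measured on both arrays, by cell type, with a bar at each median; vertical lines mark Rgs1, Rgs3 and Rgs10. Rgs1 and Rgs3 fall among the T cell markers, and Rgs10 falls within the ranges of the B cell, macrophage, Th2 and platelet markers.

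The 10 genes were also read under 9 other processing settings, which differ in the scaling, the floor and the summary of probe sets. Rgs1 stayed past 2-fold in each, though 4 of them cannot move a gene with 1 bright probe set. Rgs3 passed it in 1, the mean of its probe sets. Rgs2 and Rgs16 were measured on both arrays in 8 settings, the main one included, and Rgs18 in 1, with no floor.

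**Figure D5:**
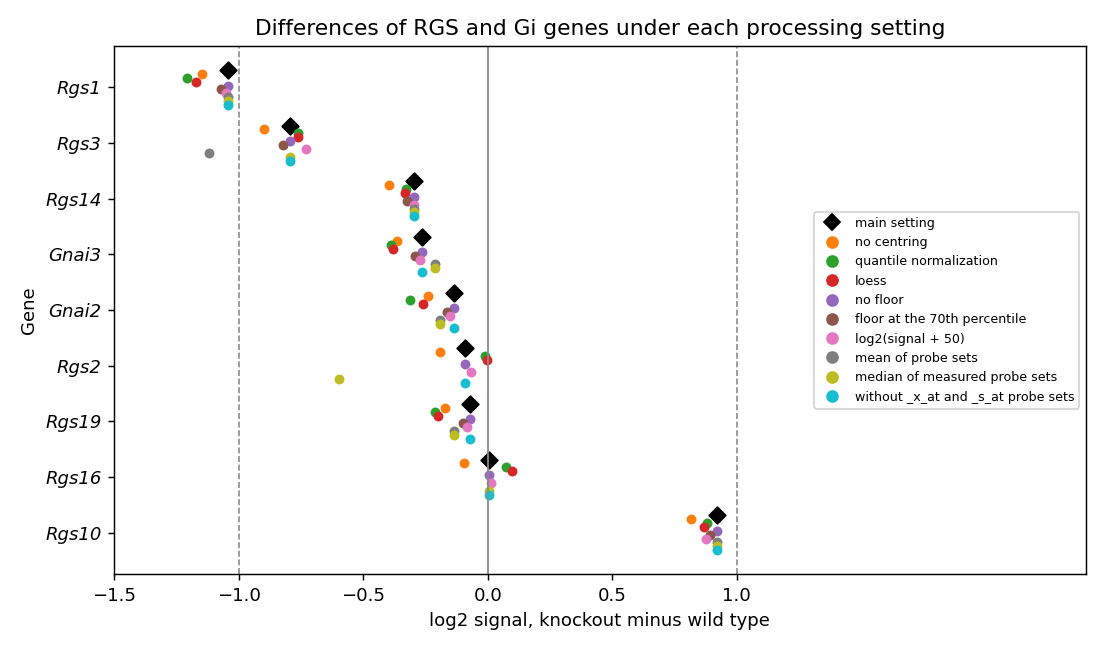
Log2 difference (knockout minus wild type) of each gene measured on both arrays under the main setting (diamonds) and 9 alternatives (circles), with dashed lines at 2-fold. Rgs2 and Rgs16 are drawn in 8 settings, those in which they were measured on both arrays. Rgs1 lies between -1.21 and -1.04 in each setting drawn, and Rgs10 between 0.82 and 0.92.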

How the data were processed

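Signals were measured on 1 array each of Ecm1 knockout and wild-type Th2 cells. Per the labels' protocols, 3 µg of total RNA gave biotinylated cRNA through the Affymetrix one-cycle method. The authors deposited 1 linear signal intensity per probe set; the sources used here name neither the summarisation software nor a genome build. The means over the central 96% of probe sets were nearly equal, at 499.8 on both arrays, so the values look globally scaled. The number of arrays limits the precision.

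Of 45101 probe sets, 34945 had 1 gene symbol in the platform annotation, 932 had several, 9160 had none and 64 were controls; only the first were named. Log2 differences were centred on the median of 20834 probe sets that reached the floor (the array median) in both groups. Where 1 of the signals was below it a bound is given, and where both were, no fold. Differences of at least 2-fold were counted without a test. The text names all 10 genes, each pathway gene past 2-fold and the brightest of each list; Ccr10, with a bound, and other genes given as examples (such as Gnai1, Gnaq, Gnat2, Ccr7, Gpr183, Arrb2, Pik3cg, Dock2 and Rac2) were chosen after their values were seen. These genes and lists were chosen with earlier results of these data known. Alternatives were no centring, quantile normalization, loess (span 0.3), no floor, a floor at the 70th percentile, log2(signal + 50), the mean or median of probe sets, and leaving out _x_at and _s_at probe sets. Python 3.11.15, pandas 2.3.3 and statsmodels 0.14.6 were used.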

Additional observations from a re-analysis of the deposited data

How the results depend on the processing

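No paired analysis was possible because there was 1 array a group, so no array could be left out either. Under each of the 9 alternatives Rgs1 stayed at least 2-fold lower, from -1.21 to -1.04, although 4 of them return the same value by construction for a gene with 1 bright probe set, and Rgs10 stayed above 0 and under 2-fold, from 0.82 to 0.92. Gnai2, Gnai3, Rgs14 and Rgs19 stayed below 0 and within 2-fold under each of them. Rgs3 ran from -1.12 to -0.73; as the mean of its probe sets, 1 of them below the floor in the knockout, it was at -1.12, and the count of these genes at least 2-fold lower was then 2. Rgs2 was at -0.60 as the median of its measured probe sets and at -0.00 after loess. With no floor Rgs18 read 2.44, its wild-type signal being below the floor of the main setting, and 1 of the genes was then at least 2-fold higher. The pathway lists then had 16 genes lower and 12 higher, and all genes had 2272 lower and 2865 higher. A floor at the 70th percentile left 285 genes lower and 416 higher, 2 of the higher ones in the pathway lists. Without centring the median of all genes moved by -0.10, and the 2-fold genes split 49.0% higher (587 higher and 611 lower) against 61.6% (725 and 451). Signals near the floor limit Rgs16, Rgs18 and the dimmer Rgs2 and Rgs3 probe sets.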
